A study of Homo sapiens with 38 samples.

Results

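Of the 5151 peaks of Sp1 WT, taken with mouse anti-FLAG, 5118 lay on chromosomes 1 to 22 and X, and 433 of these (8.46%, 95% Wilson interval 7.73 to 9.25) were distal. A peak was called distal when its nearest edge lay more than 5000 bp from every transcript start of the GENCODE 44 annotation of hg38. The rule used position alone. The other 4685 peaks served as the comparison.

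CUT&RUN directs a nuclease to an antibody on the protein of interest, so that nearby DNA is cut free and sequenced. All 38 samples, 2 for each of 19 line and antibody pairs, came from U-2 OS osteosarcoma cells whose own SP1 gene carries a V5-Halo knock-in. The parental line held no other construct, and the derived lines each carried a doxycycline-inducible transgene at AAVS1, namely wild type Sp1 (Sp1 WT), the Sp1 DNA binding domain (Sp1 DBD), a mutant Sp1 left with a single zinc finger (Sp1 DBD Mutant), the EWS disordered region joined to the Sp1 DBD (EWS IDR-Sp1 DBD), the Sp1 disordered region joined to LacI or to the CTCF DNA binding domain (Sp1 IDR-LacI, Sp1 IDR-CTCF DBD), LacI, the CTCF DBD, or SNAP-NLS, a nuclear tag. Doxycycline was given at 1 µg/ml for 36 h before a sort for transgene expression and for 36 h after it, to the parental line as well. LacI is a bacterial repressor with no cognate site in human DNA. Each line is a modified form of 1 cancer cell line, and the FLAG transgene was present beside the tagged endogenous Sp1.

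Sp1 is a zinc finger transcription factor that binds the GC box, a short GC-rich word found in many promoters, most of all in those within CpG islands. Away from promoters, regulatory DNA is often bound by factors such as AP-1, a dimer of Fos and Jun family proteins. Tandem repeats, among them the satellites of pericentromeric DNA, hold many copies of short words and are hard to place with short reads.

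The windows below reach 100 bp to either side of the summit, on the plus strand of hg38. The first 5 are the strongest distal peak outside repeated sequence without a GC box near its summit, the 3 strongest there with one, and the strongest in repeated sequence, with GC boxes (GGGCGG or its complement) in capitals. CAMTA1, a calmodulin-binding transcription activator, held in an intron the strongest distal peak outside repeated sequence and had no GC box in this window (chr1:6962752-6962952). GRIN2D, an NMDA receptor subunit, held a peak in an intron (chr19:48415408-48415608). The third window was intergenic, with NFE2L3 as the nearest coding gene (chr7:25862503-25862703), and the fourth was intergenic near TUBB4A, a beta tubulin (chr19:6516222-6516422). PRDM9, the histone methyltransferase that places meiotic recombination sites, held the strongest distal peak of repeated sequence in its coding exon for the zinc finger array (chr5:23526967-23527167).
CAMTA1: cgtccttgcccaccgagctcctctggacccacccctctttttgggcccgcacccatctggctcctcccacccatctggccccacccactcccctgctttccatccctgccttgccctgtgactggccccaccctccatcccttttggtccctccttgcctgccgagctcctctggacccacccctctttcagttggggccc
GRIN2D: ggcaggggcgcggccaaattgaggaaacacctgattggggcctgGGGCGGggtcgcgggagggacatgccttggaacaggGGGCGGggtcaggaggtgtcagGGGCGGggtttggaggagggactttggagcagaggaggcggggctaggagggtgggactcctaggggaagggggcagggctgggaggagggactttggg
NFE2L3 side: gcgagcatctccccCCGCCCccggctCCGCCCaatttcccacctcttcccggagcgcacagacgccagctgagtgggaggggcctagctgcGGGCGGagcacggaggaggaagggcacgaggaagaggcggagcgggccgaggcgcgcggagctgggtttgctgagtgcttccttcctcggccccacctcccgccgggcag
TUBB4A side: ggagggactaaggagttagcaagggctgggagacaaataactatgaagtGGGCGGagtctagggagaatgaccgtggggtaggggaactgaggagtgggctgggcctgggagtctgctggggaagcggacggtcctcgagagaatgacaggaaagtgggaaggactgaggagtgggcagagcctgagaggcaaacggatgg
PRDM9: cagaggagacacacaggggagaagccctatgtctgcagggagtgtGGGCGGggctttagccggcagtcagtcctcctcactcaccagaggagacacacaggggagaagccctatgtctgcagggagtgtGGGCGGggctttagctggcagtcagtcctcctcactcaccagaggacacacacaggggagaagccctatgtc

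A further 2 windows show the other kinds of summit. The window in an intron of GRIK4, a kainate receptor subunit, has its AP-1 word TGANTCA in capitals and was picked after its values were seen, as the strongest with AP-1, without a GC box and away from UTRs (chr11:120546764-120546964). The window on chromosome 10 belongs to the distal peak found in the most other lists, and CATTC, the unit of human satellites 2 and 3, is in capitals on either strand (chr10:41851746-41851946).
GRIK4: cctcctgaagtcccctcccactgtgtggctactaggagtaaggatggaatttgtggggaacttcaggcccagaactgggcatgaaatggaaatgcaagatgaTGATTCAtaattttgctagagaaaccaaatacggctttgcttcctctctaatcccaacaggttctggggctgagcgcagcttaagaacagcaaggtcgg
Chromosome 10 satellite: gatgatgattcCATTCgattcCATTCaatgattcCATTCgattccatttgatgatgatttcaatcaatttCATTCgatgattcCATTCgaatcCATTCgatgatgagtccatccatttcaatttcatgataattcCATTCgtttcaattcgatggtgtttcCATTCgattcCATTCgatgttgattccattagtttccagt

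Position and genic context came first. The distal peaks lay a median of 14769 bp from the nearest transcript start (quartiles 8680 and 32926 bp) and a median of 25332 bp from a protein-coding start. Of the 433, 133 lay within 10000 bp of a start, 129 between 10000 and 20000 bp, 90 up to 50000 bp, 38 up to 100000 bp and 43 beyond. Summits were intergenic in 239 (55.2%) and intronic in 177 (40.9%), of which 143 were in introns of protein-coding genes. A further 9 were in UTRs, 4 in coding exons and 4 in noncoding exons. Because the rule removes starts, these shares are a description. The 157 summits in protein-coding genes fell in 148 genes, and 9 genes held 2 each, among them CAMTA1, GRIN2D, RYR1, CUX1 and SPTBN4.

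**Figure D1:**
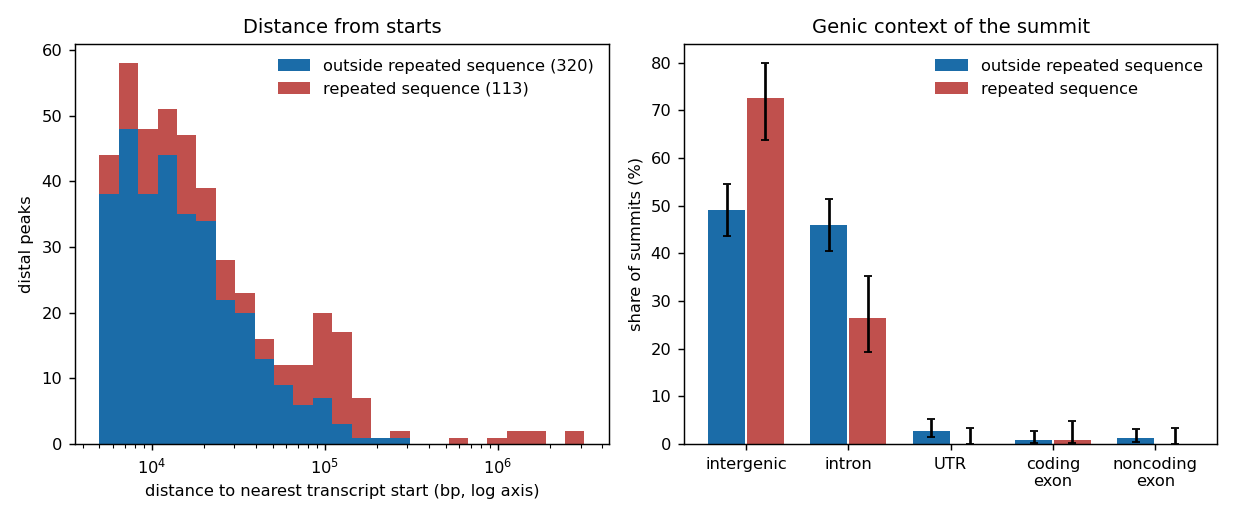
Left, distal peaks by distance to the nearest transcript start (bp, log axis), stacked by repeated sequence. Right, the share of summits (%) in each genic context with 95% Wilson intervals, where 72.6% of repeated and 49.1% of other distal summits were intergenic.

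The limit itself cut through similar peaks. Just inside it were peaks beside CALML6 (5007 bp), in MMP9, a matrix metalloproteinase (5061 bp), and in UNC13A, a synaptic vesicle priming factor (5091 bp), with −log10 p of 12.9, 10.0 and 27.7. Just outside were peaks in SDHAP1 (4953 bp), near LINC02999 (4952 bp) and in ACOX3, a peroxisomal acyl-CoA oxidase (4943 bp), with 16.4, 11.2 and 24.3. RefSeq gene starts, available for 415 of the distal peaks, lay within 5000 bp of 28 (6.75%), including the CALML6 peak, and within 1000 bp of 21.

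Repeated sequence set distal peaks apart. A summit was called repeated when at least 50% of the 31-base words within 100 bp of it occur more than once in hg38. This held for 113 of 433 distal peaks (26.1%, 22.2 to 30.4) and 206 of 4685 others (4.40%, 3.85 to 5.02), an odds ratio of 7.68 (two-sided Fisher's exact test, p = 1.3e-45). Words repeated inside the 501 bp at the summit were also more frequent, with at least 25% of 12-base words in 92 distal peaks (21.2%) against 112 others (2.39%, Fisher's exact p = 2.9e-47). The repeated peaks were farther out, at a median of 31037 bp against 13001 bp for the 320 outside repeated sequence, and 35 of the 43 peaks beyond 100000 bp were repeated. The farthest, on chromosome 1 near the centromere (chr1:124741370-124741508), lay 3160846 bp from any start. Distal summits within 1 Mb of a chromosome end numbered 29 (6.70%) against 3.84% of others (Fisher's exact p = 0.0072), and outside repeated sequence 15 (4.69%) against 3.51% (Fisher's exact p = 0.27).

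The repeated members were of more than 1 kind. In 36 of them at least 10 copies of CATTC stood within 250 bp of the summit, and these were mostly AT-rich (median GC 36.3%, range 34.9 to 51.9%), mostly narrow (median width 200.5 bp) and without a GC box in 36 of 36. Of the 36, 22 were on chromosome 1 and 9 on chromosome 16. The other 77 were mixed, with a median GC of 60.3% (range 24.6 to 83.0%), a median width of 668 bp, and a GC box in 34. Among them was the peak farthest from any start, at 139 bp and 38.9% GC. The limit of 10 copies was set after values were seen. Outside repeated sequence, 1 distal peak reached 10 copies.

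**Figure D2:**
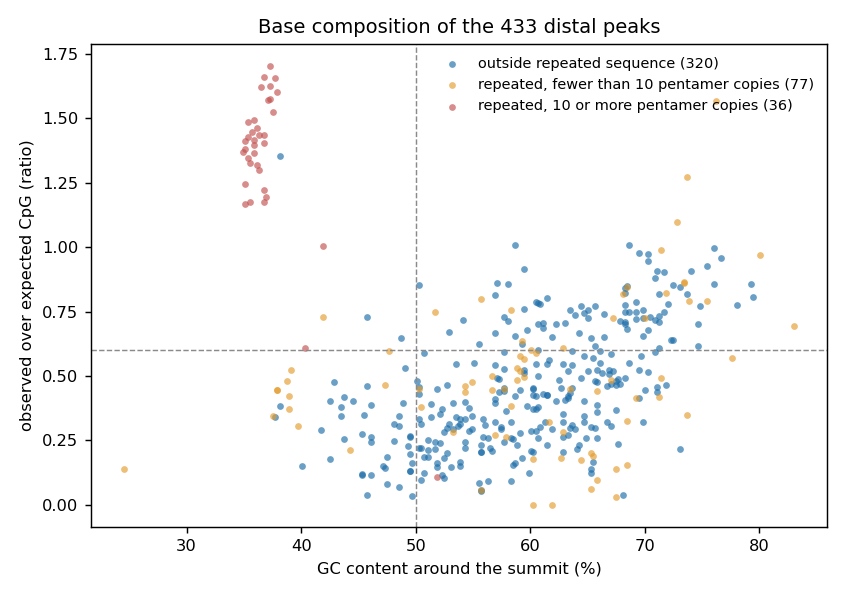
GC content (%) against the observed over expected CpG ratio in 501 bp at each of the 433 distal summits, colored by repeat class, where the pentamer is CATTC and dashed lines mark 50% and 0.6. The 36 pentamer-rich summits have a median GC of 36.3%, most of them at high CpG ratios, and 1 of them lies at 51.9% GC among the other summits.

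Base composition differed from that of the start-proximal peaks. The median GC over 501 bp was 59.3% in distal peaks and 66.1% in others, and the median observed over expected CpG was 0.458 against 0.783. A CpG-rich summit, with GC of at least 50% and a ratio of at least 0.6, was found in 108 distal peaks (24.9%, 21.1 to 29.2) and 3819 others (81.5%, 80.4 to 82.6), an odds ratio of 0.0754 (Fisher's exact p = 2.5e-128). Outside repeated sequence the shares were 27.2% and 82.3%. Because the rule removes starts, where many CpG islands lie, it fixes this difference in part. The composition of flanks was not measured. Distal peaks were also narrower, at a median of 677 bp against 967 bp.

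GC boxes were common at distal summits, but less so than near starts. GGGCGG on either strand lay within 100 bp of the summit in 187 distal peaks (43.2%, 38.6 to 47.9) and 3418 others (73.0%, 71.7 to 74.2), an odds ratio of 0.28 (Fisher's exact, adjusted p = 5.9e-34 over 10 motifs). The windows 2000 bp to either side of distal summits held one in 45 of 866 (5.20%, Fisher's exact, adjusted p = 4.2e-60). Over the whole peak, 280 distal peaks (64.7%) and 4476 others (95.5%) held at least 1. The long form GGGGCGGGG, which contains the GC box, was in 15.9% against 28.4%, and in 0.346% of flanks.

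Of the 10 motifs searched, AP-1 had the highest odds ratio of distal against other peaks. TGANTCA was in 61 distal windows (14.1%, 11.1 to 17.7) and 172 others (3.67%, 3.17 to 4.25), an odds ratio of 4.30 (Fisher's exact, adjusted p = 5.6e-16). The flanks held it in 4.62% (Fisher's exact, adjusted p = 2.8e-08). Outside repeated sequence the shares were 17.5% and 3.73%. The GT box GGGTGTGG, a weaker site for Sp1 family proteins, was in 6.24% against 2.97% (Fisher's exact, adjusted p = 0.0013). CATTCC, the TEAD word, which overlaps the satellite unit, was in 14.3% against 8.56% (Fisher's exact, adjusted p = 0.00026), but outside repeated sequence in 11.6% against 8.55% (adjusted p = 0.12), and the flanks held it in 13.05%.

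Words common in promoters were fewer than in the other peaks. CCGGAA, bound by ETS factors, was in 6.93% of distal and 16.03% of other windows (Fisher's exact, adjusted p = 1.5e-07), and CCAAT, bound by NF-Y, in 19.6% against 31.1% (adjusted p = 6.3e-07). The flanks held CCGGAA in 1.73%, less than the distal summits (Fisher's exact, adjusted p = 1.4e-05), and CCAAT in 24.02% (Fisher's exact, adjusted p = 0.13). For the cAMP response element TGACGTCA (1 distal window), the RUNX word TGTGGTT (7) and the CTCF core (2), the adjusted p was 0.11, 1 and 0.72. All motif tests were two-sided Fisher's exact tests, and a match is a word in the window. The flank tests counted both flanks of each distal peak and did not use their pairing with its summit.

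**Figure D3:**
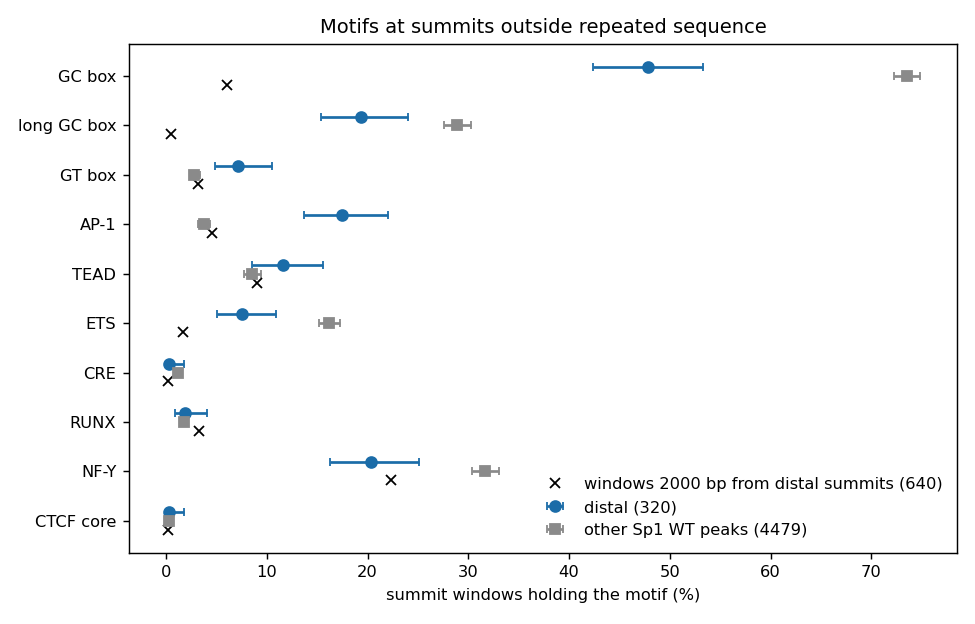
Share of 201 bp windows (%) holding each motif, outside repeated sequence, with 95% Wilson intervals for distal summits (circles) and other Sp1 WT summits (squares), and crosses for the flanks of distal summits. GC box stands at 47.8% and 73.5%, AP-1 at 17.5% and 3.73%.

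Distal peaks ranked lower. The −log10 p of the authors, the smaller of the replicate values in these lists, had a median of 16.8 (quartiles 11.9 and 23.7) in distal peaks and 18.9 (12.98 and 28.8) in others. The list was cut by rank into 4 bins of equal size. The strongest bin held 72 distal peaks (16.6%, 13.4 to 20.4) against 25.8% of the others (Fisher's exact p = 1.6e-05), and the weakest bin 132 (30.5%) against 24.5% (p = 0.0075). An IDR of 0.01 was passed by 140 distal peaks. With the bins cut anew among the passing peaks, the strongest held 23.6% of these 140. The odds ratio for that stricter bin was 0.92 (Fisher's exact p = 0.76).

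Motif content changed with rank outside repeated sequence. From the strongest bin to the weakest, the GC box share of distal summits went from 36 of 55 (65.5%) through 47.8% and 45.2% to 43 of 105 (41.0%), while that of the others stayed between 70.7% and 75.2%. The AP-1 share of distal summits went from 3 of 55 (5.45%) through 10.4% and 20.4% to 27 of 105 (25.7%). That of the others was also lowest in the strongest bin, at 1.73%, then 3.04%, 5.81% and 4.44%. These trends are a description.

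The strongest distal peaks outside repeated sequence were mostly shared with the lists of an Sp1 DNA binding domain and with those of endogenous Sp1. No other anti-FLAG list held any of the peaks named here. The peaks of CAMTA1 (−log10 p 75.3), GRIN2D (74.3), the NFE2L3 side (70.1), TUBB4A (68.1), the lncRNA ENSG00000227479 (68.0), SDR42E2 (61.8) and MRPL48, a mitochondrial ribosomal protein gene (55.8), were each in the same 10 other lists, those of Sp1 DBD, EWS IDR-Sp1 DBD and all 8 anti-V5 lists. The peak beside PRR20G (56.4) was in 9, without Sp1 WT rabbit anti-V5. The peak in RYR1, the skeletal muscle calcium release channel (53.9), was in 6, the anti-V5 lists of the construct lines, and in neither parental list nor that of Sp1 DBD. The peak in GALNT9 (53.3), at 4323 bp the widest distal peak, was in 8. The CAMTA1 peak, without a GC box at its summit, held 14 over its 1467 bp. The replicate values given to IDR were 75.3 and 120.55 for CAMTA1, 74.3 and 87.2 for GRIN2D, and 53.9 and 75.7 for RYR1. Over all distal peaks the first replicate had a median of 16.8 and the second 24.2, so the merged value mostly followed the first.

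In repeated sequence PRDM9 led with a −log10 p of 102.65 (replicates 102.65 and 144.94), rank 14 of the list, and 11 other lists, the CTCF DBD among them. PRKAR1B, a regulatory subunit of protein kinase A (80.5), had 9 lists and no GC box in its peak. The peak nearest PIM3, a serine/threonine kinase gene (75.9), had 10, PTPRN2 (69.5) 5, and DLGAP2 (68.9) 2, Sp1 DBD and EWS IDR-Sp1 DBD. The chromosome 10 satellite peak (chr10:41851760-41851932, 173 bp, −log10 p 23.5) was in 12 lists, among them LacI, SNAP-NLS and Sp1 DBD Mutant, and in neither parental anti-V5 list.

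Of the peaks outside repeated sequence with endogenous Sp1 signal in the parental line, the farthest from a start lay in an intron of STX18-AS1 (130481 bp, 10 lists, no GC box in the peak). It was followed by a peak near CUX1, a homeobox gene (85960 bp, 2 lists), and peaks in SORCS2, a sortilin family receptor (79568 bp, 8), and in MYT1L, a neuronal zinc finger factor (77321 bp, 5). The fifth was nearest the pseudogene HMGB3P5 (51017 bp, 5). In all, 80 distal peaks (18.5%, 15.1 to 22.4) were in a parental anti-V5 list and 51 in both, against 1759 (37.5%) and 1194 of the others.

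Recovery, an overlap of at least 1 bp, was lower for distal peaks in most lists of an Sp1 DNA binding domain or of endogenous Sp1. Sp1 DBD held 105 of 433 distal peaks (24.2%, 20.4 to 28.5) and 50.9% of the others, with 48.7% of all Sp1 WT peaks as background (adjusted p = 3.2e-26 by Fisher's exact test over 18 lists). EWS IDR-Sp1 DBD held 101 (23.3%, 19.6 to 27.5) against 36.2%, background 35.1% (Fisher's exact, adjusted p = 6.9e-08). The parental rabbit anti-V5 list held 64 (14.8%) against 32.1%, background 30.6% (Fisher's exact, adjusted p = 1.9e-14), and the parental mouse anti-V5 list 67 (15.5%) against 30.9%, background 29.6% (adjusted p = 5.5e-12).

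The anti-V5 lists of the construct lines also show endogenous Sp1, and the sizes of the differences were not compared between lists. With rabbit anti-V5, Sp1 IDR-LacI held 80 (18.5% against 34.1%, background 32.8%, Fisher's exact, adjusted p = 1.8e-11) and Sp1 IDR-CTCF DBD 93 (21.5% against 34.5%, background 33.4%, adjusted p = 3.2e-08). With mouse anti-V5, Sp1 IDR-LacI held 93 (21.5%, background 27.2%, Fisher's exact, adjusted p = 0.0061), Sp1 IDR-CTCF DBD 69 (15.9%, background 22.1%, adjusted p = 0.0016) and Sp1 WT 68 (15.7%, background 21%, adjusted p = 0.0052). Sp1 WT with rabbit anti-V5 held 97 (22.4%) against 26.6%, background 26.3%, which did not pass (Fisher's exact, adjusted p = 0.071). This call depended on the setting. Outside repeated sequence it was 14.4% against 26.7% (Fisher's exact, adjusted p = 1.3e-06), and it also passed at an unadjusted threshold beyond 2000 bp, with coding starts and without control peaks (odds ratios 0.65, 0.66 and 0.72), while within rank bins the odds ratio was 1.10 (p = 0.48, Cochran-Mantel-Haenszel test, not exact). Distal and other peaks compared within the 4 rank bins left 6 lists with lower recovery of the 9 here (Cochran-Mantel-Haenszel test), and no call for the 3 mouse anti-V5 lists of the construct lines. At an IDR of 0.01, 2 lists passed. Distal peaks were narrower, as given above, and the part of width was not tested.

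In 6 anti-FLAG lists, from the parental line and from constructs without an intact Sp1 or CTCF DNA binding domain, the few overlaps were nearly all distal. Sp1 IDR-LacI held 25 distal peaks (5.77%, background 0.508%), SNAP-NLS 10 (2.31%, background 0.195%), parental rabbit anti-FLAG 9 (2.08%, background 0.195%), LacI 7 (1.62%, background 0.137%) and Sp1 DBD Mutant 4 (0.924%, background 0.0782%), against 0 or 1 of the 4685 others in each (Fisher's exact, largest adjusted p = 8.3e-05). Parental mouse anti-FLAG held 0 (background 0%). Of the 34 distal peaks in any of these 6 lists, 33 were in repeated sequence. With repeated peaks left out, Sp1 IDR-LacI held 1 of 320 distal peaks and 0 of 4479 others. SNAP-NLS, parental rabbit anti-FLAG, LacI and Sp1 DBD Mutant held 0 of either. With so few overlaps Fisher's exact test could not pass in any of the 5. CTCF DBD held 17 (3.93%, background 3.77%, Fisher's exact, adjusted p = 0.89) and Sp1 IDR-CTCF DBD with anti-FLAG 5 (1.15%, background 1.33%, adjusted p = 1).

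**Figure D4:**
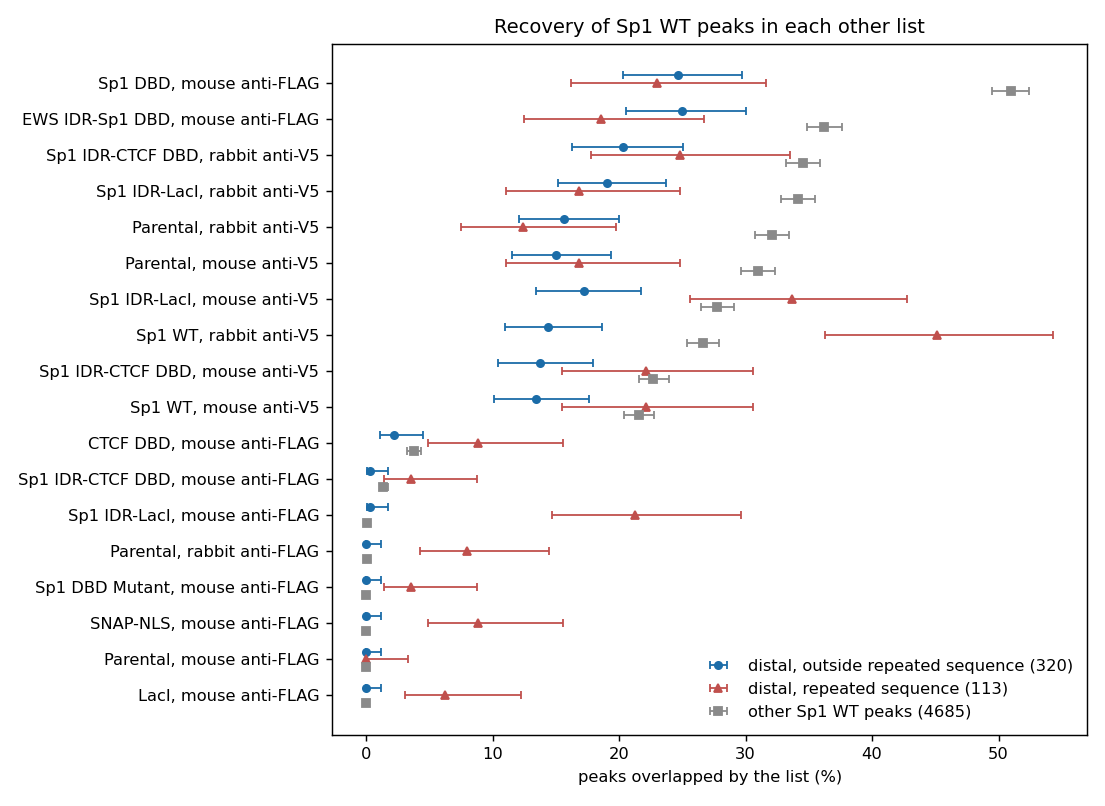
Share of Sp1 WT peaks (%) overlapped by each of the 18 other lists, with 95% Wilson intervals, for distal peaks outside repeated sequence, distal repeated peaks and other peaks. Repeated distal peaks reach 45.1% in Sp1 WT rabbit anti-V5. Distal peaks outside repeated sequence stay at 0 to 0.313% in the 6 lists at the bottom and in Sp1 IDR-CTCF DBD with anti-FLAG.

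Among the 18 other lists, Sp1 WT rabbit anti-V5 held the most repeated distal peaks. It held 51 of 113 repeated distal peaks (45.1%, 36.3 to 54.3) and 46 of 320 others among the distal (14.4%). Of the repeated, 38 were in this list and not in the parental rabbit anti-V5 list, and 1 the reverse (exact binomial p = 1.5e-10). Outside repeated sequence it was 14 and 18 (exact binomial p = 0.6). Of the 36 CATTC-rich peaks, 29 were in the Sp1 WT rabbit anti-V5 list, 2 in the parental one, 4 in Sp1 DBD and 26 in at least 1 of the 6 lists above. Of the other 77 repeated distal peaks, 7 were in at least 1 of those 6 lists. In the Sp1 IDR-LacI line, mouse anti-V5 also held more of the repeated, 38 of 113 (33.6%) against 55 of 320 (17.2%). Rabbit anti-V5 of that line held 16.8% and 19.1%. Of the 36 CATTC-rich peaks, Sp1 IDR-LacI held 15 with mouse anti-V5, 1 with rabbit anti-V5 and 19 with anti-FLAG. The parental comparison and the CATTC counts were added after values were seen. All peaks counted were called in the Sp1 WT line, so the choice of members does not treat its lists and the parental ones alike. The part of that choice was not tested. Neighbouring repeated peaks are not independent, so the p-value for repeated peaks counts them as if they were.

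Within the distal peaks a GC box went with recovery by Sp1 domains. Sp1 DBD held 73 of 187 with a GC box (39.04%) and 32 of 246 without (13.01%), an odds ratio of 4.28 (Fisher's exact, adjusted p = 6e-09 over 12 tests). For EWS IDR-Sp1 DBD the shares were 33.2% and 15.9% (Fisher's exact, adjusted p = 9.7e-05), for parental mouse anti-V5 24.1% and 8.94% (adjusted p = 9.7e-05), and for parental rabbit anti-V5 20.3% and 10.6% (adjusted p = 0.011). SNAP-NLS held 0 of 187 and 10 of 246 (Fisher's exact, adjusted p = 0.011). All 36 CATTC-rich repeated peaks were among those without a GC box. Outside repeated sequence the GC box share was also higher in the stronger rank bins, as given above. The part of rank in these differences was not tested. By repeated sequence, SNAP-NLS (10 of 113 against 0 of 320, Fisher's exact, adjusted p = 6.5e-06) and CTCF DBD (10 against 7, adjusted p = 0.0088) differed, while the other 4 lists did not pass.

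Distal peaks with AP-1 were seldom in the Sp1 DBD list. Outside repeated sequence it held 4 of 56 with AP-1 (7.14%, 2.81 to 17.0) and 75 of 264 without (28.4%, 23.3 to 34.1), an odds ratio of 0.194 (Fisher's exact, adjusted p = 0.002 over 4 lists, added after values were seen). EWS IDR-Sp1 DBD held 9 (16.1%) against 26.9% (Fisher's exact, adjusted p = 0.17), and parental rabbit anti-V5 9 (16.1%) against 15.5% (adjusted p = 1). Parental mouse anti-V5 held 4 (7.14%) against 44 (16.7%, Fisher's exact, adjusted p = 0.17). With AP-1 and no GC box, 2 of 42 were in Sp1 DBD (4.76%), 5 in EWS IDR-Sp1 DBD (11.9%), 8 in parental rabbit anti-V5 (19.05%) and 3 in parental mouse anti-V5 (7.14%). With neither motif it was 18 (14.4%), 26 (20.8%), 15 (12%) and 14 (11.2%) of 125. With a GC box and no AP-1, Sp1 DBD held 57 of 139 (41.0%), and with both motifs 2 of 14 (14.3%). The peaks without AP-1 thus include those with a GC box alone. AP-1 peaks also ranked lower, as given above. The parts of the GC box and of rank in the Sp1 DBD difference were not tested.

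Over the distal peaks, Sp1 DBD and EWS IDR-Sp1 DBD were set against each other. Of the 433, 65 were in both lists, 40 in Sp1 DBD alone and 36 in EWS IDR-Sp1 DBD alone (exact binomial p = 0.73), so that 52.6% (41.6 to 63.5) of the peaks in 1 list were those of Sp1 DBD. Among other peaks the numbers were 973 and 283, or 77.5% (75.1 to 79.7). The odds of Sp1 DBD alone were lower in distal peaks by an odds ratio of 0.32 (Fisher's exact p = 5.1e-06, added after values were seen). With the Sp1 DBD list cut to the length of the shorter one, they were 26 and 43 against 642 and 393 (odds ratio 0.37, Fisher's exact p = 0.00011). For the distal peaks alone, equal length gave an exact binomial p of 0.053. Outside repeated sequence, whole lists gave 33 in Sp1 DBD alone and 34 in EWS IDR-Sp1 DBD alone. With both limits together it was 21 and 40 (exact binomial p = 0.02, unadjusted). That cut was not a planned setting and was the only one of these distal comparisons under 0.05. Each construct is 1 list from 2 samples, so the p-value compares lists.

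**Figure D5:**
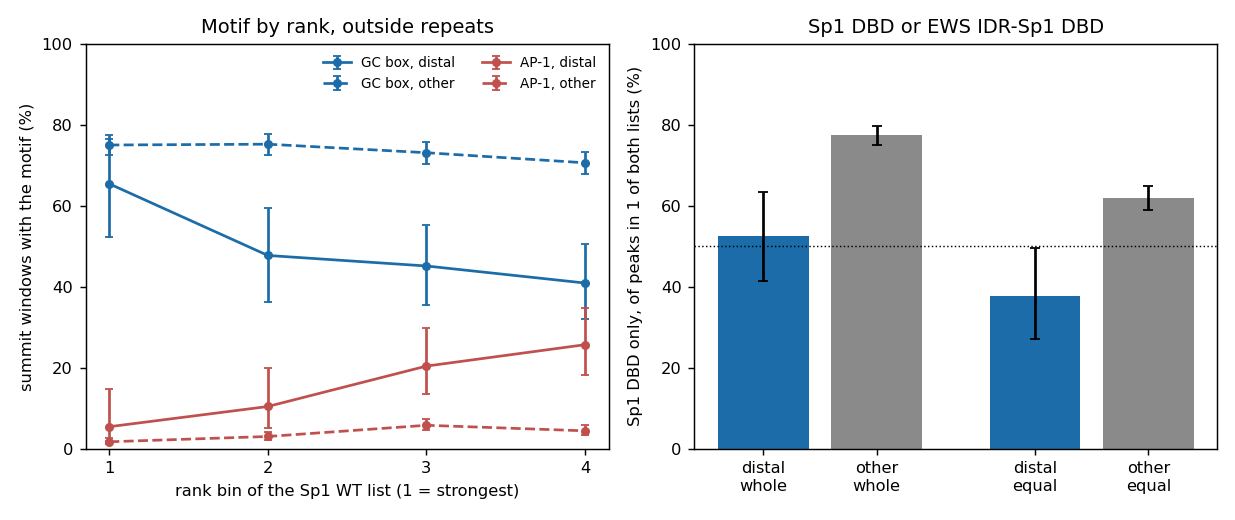
Left, share of summits (%) with a GC box or AP-1 by rank bin of the list, outside repeated sequence, distal (solid) and other (dashed). Right, share (%) of peaks in exactly 1 of the Sp1 DBD and EWS IDR-Sp1 DBD lists that were in Sp1 DBD, for whole lists and lists of equal length, at 52.6%, 77.5%, 37.7% and 62.0%. Bars are 95% Wilson intervals.

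Many distal peaks were found with Sp1 WT and mouse anti-FLAG alone. Of the 433, 194 (44.8%, 40.2 to 49.5) were in no other list, 122 in 1 or 2 and 117 in 3 or more, against 27.8% of other peaks in none. Outside repeated sequence 160 of 320 were in none, and in repeated sequence 34 of 113. The distal share of a list was lowest in parental mouse anti-V5 (4.28%), with 4.61% in parental rabbit anti-V5 and 5.04% in Sp1 DBD. It was 9.85% in EWS IDR-Sp1 DBD and 26.1% in CTCF DBD, the latter 18.2% outside repeated sequence. In LacI and Sp1 DBD Mutant, 100% of 204 and 72 peaks were distal, 196 and 68 of them in repeated sequence. The share was 99.6% in SNAP-NLS and 99.5% in Sp1 IDR-LacI anti-FLAG. In parental rabbit and mouse anti-FLAG it was 89.8% and 81.0%, again mostly in repeated sequence.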

How the data were processed

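CUT&RUN was compared across 19 lists, each made by the authors from both samples of a group. By their methods and processing notes, reads were trimmed with cutadapt 2.6, aligned to hg38 with Bowtie2 2.3.5.1, deduplicated with SAMtools 1.9, and peaks were called with MACS3 (given as 2.2.7.1) and passed through IDR at 0.1. The −log10 p-values are those the authors deposited. The score used for thresholds of 0.05 and 0.01 is the deposited −log10 IDR. Whether a blacklist was applied to the peaks is not given in the sources used here. Another 6 deposited tables hold the authors' own differential regions, which were not used. The study gives read numbers in a supplementary table that was not analysed here, and the peak lists carry no depth, so no depth limit is given.

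Distances used GENCODE 44, of the same build as the files. Motifs were searched on both strands in 201 bp at the summit. Overlap numbers were checked with bedtools 2.31.1 in 18 lists (0 differed). Fisher's exact, exact binomial and Cochran-Mantel-Haenszel tests (SciPy 1.17.1, statsmodels 0.14.6, pysam 0.24.0, Python 3.11.15) were two-sided, with Benjamini-Hochberg adjustment and a threshold of 0.05. Intervals are Wilson at 95% and cover counting error. Peaks are sites, not replicates, and neighbours are not independent, so p-values compare lists, not cultures. The code was tested on simulated data. Peaks named were the 10 strongest distal peaks outside repeated sequence, the 5 strongest within it, the 5 farthest in a parental anti-V5 list, the 5 in the most lists, and 3 to each side of the limit. The members and lists were chosen with earlier results of these data known. Alternatives were limits of 2000 and 10000 bp, coding starts, the summit, stricter IDR, lists without repeated or control peaks, other overlaps, list lengths and motif forms.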

Additional observations from a re-analysis of the deposited data

Results flagged for a closer look

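The balance between Sp1 DBD and EWS IDR-Sp1 DBD differed between distal and other Sp1 WT peaks, by a test of the difference itself. The odds of a peak being in Sp1 DBD alone rather than in EWS IDR-Sp1 DBD alone had a ratio of 0.32 (distal 40 to 36, other 973 to 283, two-sided Fisher's exact p = 5.1e-06). Without repeated sequence the ratio was 0.29 (Fisher's exact p = 2.7e-06), with lists of equal length 0.37 (p = 0.00011), and within rank bins 0.32 (Cochran-Mantel-Haenszel p = 6.9e-07). The comparison was added after the values were seen.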

How the results depend on the processing

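No paired analysis was possible because each list was made from both samples of a group, and for the same reason no sample could be left out. The distal share of 8.46% was 11.98% beyond 2000 bp, 5.86% beyond 10000 bp, 15.8% with starts of protein-coding genes only, 7.44% at an IDR of 0.05 and 5.49% at 0.01. The odds ratio of the strongest rank bin was 0.92 at an IDR of 0.01, with the bin cut anew among the passing peaks. The ratio for EWS IDR-Sp1 DBD was 0.78 (Fisher's exact p = 0.16) there. Lower distal recovery passed in 9 lists, and in 2 at an IDR of 0.01. Higher recovery passed in 5 lists, and in 0 at an IDR of 0.01, without repeated sequence and with the 1000 highest ranked peaks of each list (which left 10 lists), and in 1 without control peaks. Without repeated sequence these 5 lists had too few overlaps to pass, and none holds 1000 peaks, so neither setting could keep them. The setting without control peaks drops peaks by their presence in control lists, so a list used that way could not pass either. The 1 list that passed there was Sp1 IDR-LacI anti-FLAG. The share of Sp1 DBD alone among distal peaks in 1 list went from 52.6% to 37.7% with lists of equal length (exact binomial p = 0.053) and to 49.3% without repeated sequence (p = 1). Directions also turned in odds ratios for CTCF DBD, from 1.05 to 0.987 by summit distance, 0.603 at an IDR of 0.01, 0.592 without repeated sequence and 0.83 without control peaks, and for Sp1 IDR-CTCF DBD anti-FLAG from 0.857 to 1.00 beyond 10000 bp and 1.65 with coding starts. At an IDR of 0.01 they turned to 1.04 for Sp1 IDR-CTCF DBD, 1.0123 for Sp1 IDR-LacI and 1.0119 for Sp1 WT, all mouse anti-V5, and to 0 for Sp1 IDR-LacI anti-FLAG. Within rank bins, Sp1 WT rabbit anti-V5 turned to 1.10. The cause was not tested. Of 210 alternative values, 174 were counted as the same, which for odds ratios means the same direction and side of the threshold. For shares and counts of lists it allowed some change, as from 9 lists with lower recovery to 6 within rank bins.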
